A study of Homo sapiens with 6 samples.

Results

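Messenger RNA of 10 inflammatory cytokine and chemokine genes was examined in EJ cells, an established human bladder cancer line, with and without knockdown of STIL, a protein needed for centriole duplication. The genes are CXCL1, CXCL2, CXCL3, CXCL8, CCL2, IL6, IL1A, IL1B, LIF and CSF2. They were picked by symbol, and all 10 were found among the 15953 genes of the expression tables. RNA-seq had been conducted in 2 groups of 3 libraries, EJ cells made stable with a lentiviral hairpin against STIL (shSTIL) and control cells with a control hairpin (shNC). Both groups carried a lentiviral hairpin, and the number of hairpin sequences or clones behind each group is not given in the sources used here. Nothing says that the 3 libraries of a group came from separate cultures, so the P-values measure only the spread between these libraries, which may be technical. Because bulk RNA was sequenced, a change in the number of cells that express a gene and a change in the RNA per cell cannot be told apart.

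Chemokines are small secreted proteins that attract leukocytes along a gradient. CXCL1, CXCL2, CXCL3 and CXCL8 attract mainly neutrophils through the receptor CXCR2, and CXCL8 also through CXCR1, while CCL2 attracts monocytes through CCR2. IL6 and LIF belong to a family of cytokines that signal through the shared chain IL6ST (gp130) to JAK kinases and STAT3. CSF2 (GM-CSF) drives the growth of granulocytes and macrophages, and IL1A and IL1B start inflammatory signalling through IL1R1. In epithelial cells such genes are held low by rapid decay of their mRNA and are switched on by NF-kB, AP-1 and C/EBP factors.

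The 3′ untranslated regions of the 10 mRNAs (GENCODE 29, GRCh38) show the sequence feature for which cytokine mRNAs are known, the AU-rich word ATTTA, which can overlap with itself and which is bound by proteins that speed or slow mRNA decay. For the 7 mRNAs whose richest stretch of 30 bases has at least 15 in such words, and for CCL2, which holds 1 word in all, that stretch is printed 5′ to 3′ on the strand of the gene, with ATTTA and the longer word TTATTTATT in capitals, also where the stretch cuts a word at its end.
CXCL2, chr4:74097588-74097617, minus strand: gtcttctATTTATTTATTTATTTATTTATT
CSF2, chr5:132076072-132076101, plus strand: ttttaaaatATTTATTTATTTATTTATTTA
CXCL8, chr4:73743108-73743137, plus strand: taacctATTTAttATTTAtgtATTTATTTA
LIF, chr22:30240524-30240553, minus strand: TTATTTATTcaatgtcatATTTAaaatATT
CXCL1, chr4:73870667-73870696, plus strand: taggagaagtcttctATTTATTTATTTATT
IL1B, chr2:112830001-112830030, minus strand: agcaaccgcttccctATTTATTTATTTATT
IL1A, chr2:112774424-112774453, minus strand: tATTTAtatatgtATTTAtaaatatATTTA
CCL2, chr17:34256406-34256435, plus strand: taaacctagagtcagagagtgcactATTTA

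The word was densest in CSF2, with 8 copies in a 3′ UTR of 318 bases, or 25.2 per kb, above 99.97% of the genes. IL1A held 5 copies (4.34 per kb), IL6 held 6 (14.0 per kb), CXCL2 held 10 (13.9 per kb), CXCL3 held 7 (10.4 per kb) and IL1B held 6 (9.84 per kb). CXCL8 held 9 copies at 7.19 per kb and CXCL1 held 5 at 7.08 per kb. LIF, whose 3′ UTR is the longest of the 10 at 3204 bases, held 7 copies at 2.19 per kb, and CCL2 held 1 at 2.11 per kb. The median over the 10 genes was 8.51 per kb against 1.62 per kb over all genes with a 3′ UTR of at least 100 bases. The longer word TTATTTATT, read on the gene strand, was present in 7 of the 10 genes (CXCL1, CXCL2, CXCL3, CXCL8, IL1B, LIF and CSF2) and in 8.83% of 15505 genes with a coding transcript. A match of letters is a description of these sequences and not a measurement of binding.

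STIL itself, the targeted gene, had log2 CPM of 5.98, 6.10 and 6.01 in shNC libraries and 4.05, 4.06 and 4.01 in shSTIL libraries (log2 fold change -1.99, standard error 0.05, limma adjusted p = 6.1e-12), which left 25.2% of the control level. The deposited values are log2 CPM, counts scaled to the size of the library and put on the log2 scale, and the estimated reads behind them could be recovered, of which 87.5% to 87.9% per library were whole numbers. Depth was 16214770 to 16431239 reads in the shNC libraries and 16734466 to 16901633 in the shSTIL libraries. The epithelial keratins KRT8 and KRT18 were high (mean log2 CPM in shNC 8.56 and 9.32), whereas the urothelial and epithelial markers KRT5, CDH1 and UPK2 had mean log2 CPM of -3.05, -2.06 and -1.90 in shNC, close to no reads. Of 12 such markers 10 were measured, of which 1 was higher and 2 lower, and they summed to 1074 to 1132 CPM in shNC and 968 to 1000 CPM in shSTIL. Of 12 leukocyte markers 8 were measured and 1, CD79A, was called (log2 fold change 1.99), at 1 to 4 reads in shNC and 16 to 22 in shSTIL. The summed CPM of those 8 was 12.4 to 13.3 in shNC and 15.2 to 17.6 in shSTIL. Most of it came from CD68, with 173 to 250 reads per library, while each other marker had at most 30. The markers PTPRC, CD3E, TYROBP and CD163 were not measured. The 5 endothelial markers measured summed to 0.686 to 1.04 CPM in shNC and 0.761 to 0.930 in shSTIL, with none called. The 2 fibroblast markers measured summed to 2.64 to 4.11 CPM in shNC and 1.94 to 2.22 in shSTIL, and 1 of them, COL1A1, was called lower. The part of such cells in the results was not tested.

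Of the 10 cytokine genes, 6 were higher in shSTIL than in shNC cells (CXCL1, CXCL2, CXCL8, IL6, LIF and CSF2), 1 was lower (IL1B), and 3 did not pass the test (CXCL3, CCL2 and IL1A). The test was limma over all genes with a Benjamini-Hochberg adjusted p under 0.01, by which 23.5% of the 15953 genes were called higher and 23.6% lower. There was no overlap between shNC and shSTIL libraries for 7 of the genes, higher in shSTIL, against a background of 29.9% of all genes, and for 1 gene, lower in shSTIL, against 30.5%. The median log2 fold change was 0.43 over the 10 genes and 0.0052 over all genes. Where the average log2 CPM over the 6 libraries was 1 or more, as for 6 of the cytokine genes (CXCL1, CXCL2, CXCL3, CXCL8, IL6 and LIF), a fit restricted to genes at that level called all 6 higher, against 32.5% of 11319 genes. For each gene without overlap, p was 0.1 by exact permutation of the libraries (two-sided), the lowest value possible in 3 libraries against 3. The plot of log2 CPM by library shows these values.

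**Figure D1:**
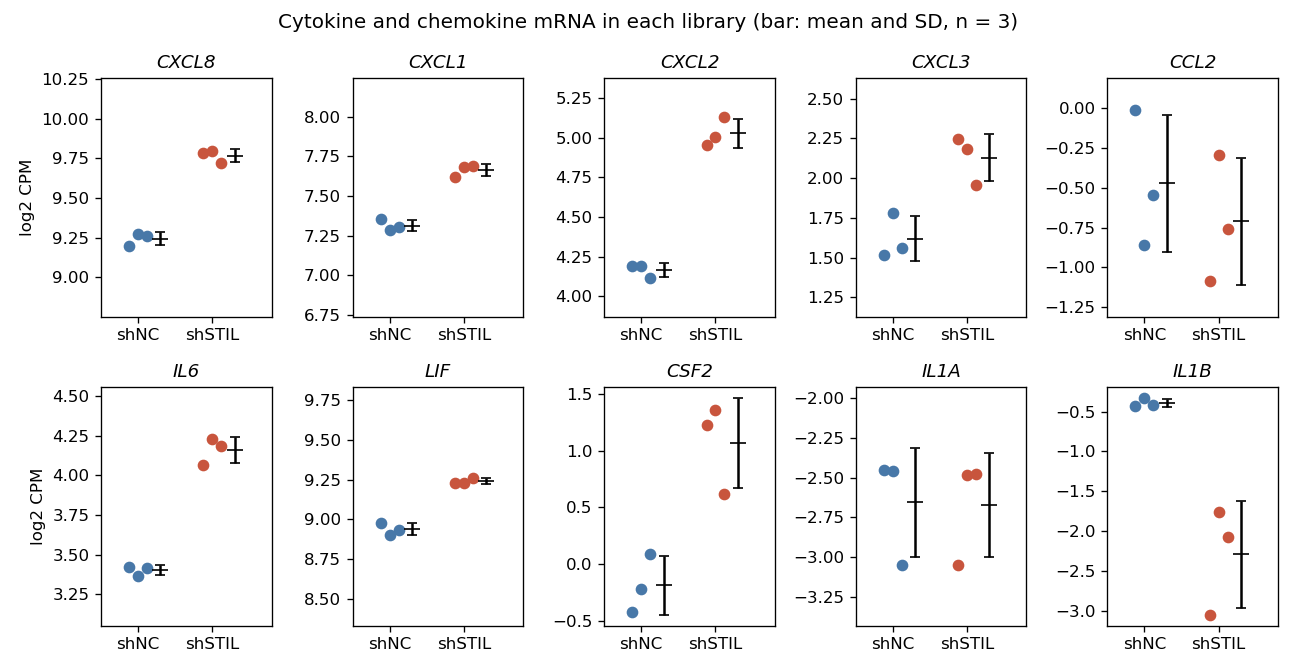
Log2 CPM (vertical axis, a separate range for each gene) of the 10 cytokine genes in the 3 shNC and 3 shSTIL libraries; points are libraries and the bar beside them is the mean with its SD (n = 3). The groups are apart for CXCL8, CXCL1, CXCL2, CXCL3, IL6, LIF and CSF2, with shSTIL higher, and for IL1B, with shSTIL lower, while CCL2 and IL1A overlap.

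CXCL8 (interleukin 8), the main neutrophil chemokine of human epithelial cells, is found at chr4:73740506-73743716 (GRCh38, plus strand). The log2 CPM of CXCL8 was 9.20, 9.27 and 9.26 in shNC libraries and 9.78, 9.79 and 9.72 in shSTIL libraries, from 9429 to 10076 and 14306 to 15262 reads. Every shSTIL library was above every shNC library, and CXCL8 rose 1.44-fold (log2 fold change 0.52, 95% confidence interval 0.45 to 0.59, limma adjusted p = 2.2e-08).

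CXCL1, CXCL2 and CXCL3 (GRO alpha, beta and gamma) are near-copies of each other. CXCL1 (chr4:73869393-73871242, plus strand) had log2 CPM of 7.35, 7.28 and 7.31 in shNC and 7.62, 7.68 and 7.69 in shSTIL, without overlap. It rose 1.28-fold (log2 fold change 0.35, interval 0.28 to 0.42, limma adjusted p = 1.0e-06). CXCL2 (chr4:74097035-74099293, minus strand) had log2 CPM of 4.19, 4.19 and 4.12 in shNC and 4.95, 5.0 and 5.13 in shSTIL. With 274 to 296 reads against 528 to 592, it rose 1.82-fold (log2 fold change 0.86, interval 0.72 to 1.00, limma adjusted p = 8.4e-08), and its interval lies above those of CXCL1 and CXCL8. CXCL3 (chr4:74036589-74038807, minus strand) had log2 CPM of 1.52, 1.78 and 1.56 in shNC and 2.24, 2.18 and 1.96 in shSTIL, from 44 to 54 and 64 to 79 reads. Its libraries did not overlap, yet it missed the threshold in the fit over all genes (log2 fold change 0.51, interval 0.17 to 0.85, limma adjusted p = 0.0135) and passed it in the fit restricted to genes averaging a log2 CPM of 1 or more (adjusted p = 0.00437) and in edgeR on recovered reads (adjusted p = 0.00453). CXCL3 missed the threshold in DESeq2 (adjusted p = 0.0442), with a replicate block (limma adjusted p = 0.0216) and in every fit that left out a library (limma adjusted p from 0.0171 to 0.0561).

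Reads of near-copies can be split between them by the counting. The coding sequences of CXCL1 and CXCL2 were 93.5% identical, those of CXCL1 and CXCL3 90.8%, and those of CXCL2 and CXCL3 94.4%, against 53.7% to 55.9% with CXCL8. Over the whole transcripts, however, 5.73% of the 50-base words of CXCL1 also occurred in CXCL2 and 0.573% in CXCL3, while 4.62% of those of CXCL2 occurred in CXCL3. The recovered reads of all 10 genes were whole numbers in every library, within 0.01 of a read. When CXCL1, CXCL2 and CXCL3 were summed, the log2 fold change was 0.41 (limma adjusted p = 1.7e-07).

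The promoters of these chemokines show the motif for NF-kB that the family is known for. RefSeq sequences before the start (GRCh38.p14) were matched for 8 of the 10 genes, all but LIF and CCL2. The 250 bases before each of these starts were searched. Shown are the 150 bases before the start, 5′ to 3′ on the gene strand, for the 5 genes with a match. Capitals mark the kB consensus and the shorter form GGNNTTTCC, which can overlap.
CXCL1, chr4:73869243-73869392, plus strand: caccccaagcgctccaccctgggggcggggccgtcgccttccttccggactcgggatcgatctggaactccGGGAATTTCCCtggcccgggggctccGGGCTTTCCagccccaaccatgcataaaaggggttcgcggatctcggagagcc
CXCL2, chr4:74099196-74099345, minus strand: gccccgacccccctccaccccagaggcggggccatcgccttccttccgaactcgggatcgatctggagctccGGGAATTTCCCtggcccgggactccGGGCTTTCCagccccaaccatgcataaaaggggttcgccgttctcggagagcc
CXCL3, chr4:74038690-74038839, minus strand: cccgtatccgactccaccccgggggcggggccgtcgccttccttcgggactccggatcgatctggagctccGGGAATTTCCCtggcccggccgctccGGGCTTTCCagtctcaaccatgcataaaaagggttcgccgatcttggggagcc
CXCL8, chr4:73740419-73740568, plus strand: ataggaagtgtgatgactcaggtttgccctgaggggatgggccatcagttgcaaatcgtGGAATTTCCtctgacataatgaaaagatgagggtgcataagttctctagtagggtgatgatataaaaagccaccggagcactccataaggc
IL6, chr7:22727050-22727199, plus strand: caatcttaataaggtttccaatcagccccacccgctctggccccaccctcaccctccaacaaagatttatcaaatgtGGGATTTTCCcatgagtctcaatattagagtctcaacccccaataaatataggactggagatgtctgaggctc

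On either strand, the kB consensus was found in 4 of the 8 promoters (CXCL1, CXCL2, CXCL3 and IL6) and in 5.21% of 35116 promoters of the same length. The shorter form was found in 5 of 8, CXCL8 included, and in 5.48% of all. CSF2, IL1A and IL1B were searched and held neither form. The first match began at base -79 of CXCL1 and CXCL3, -78 of CXCL2, -91 of CXCL8 and -73 of IL6, counted back from the start. The AP-1 word TGANTCA was found in CXCL8 and IL1A (6.57% of all promoters), and the C/EBP word TTNNGNAA in CXCL2, IL6, IL1A and IL1B (33.2% of all). The word TATAAA was found on the gene strand of CXCL8 and IL1A (6.8% of all). Among 18288 promoters of measured genes, the kB consensus was found in 6.11%, the shorter form in 5.94% and the AP-1 word in 4.96%. The C/EBP word was found in 26% of those and TATAAA in 4.68%. These counts describe letters within this window.

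IL6 and LIF, the cytokines that signal through gp130, also rose. IL6 (chr7:22725884-22732002, plus strand) had log2 CPM of 3.42, 3.36 and 3.42 in shNC and 4.07, 4.23 and 4.19 in shSTIL, from 166 to 170 and 285 to 320 reads. The groups were apart by far more than their spread, and IL6 rose 1.69-fold (log2 fold change 0.76, interval 0.59 to 0.93, limma adjusted p = 2.3e-06). The gene overlaps STEAP1B on the other strand, whose mean log2 CPM was -0.38 in shNC and -0.16 in shSTIL. LIF (chr22:30240447-30246851, minus strand), which keeps stem cells undifferentiated in culture, had log2 CPM of 8.97, 8.90 and 8.93 in shNC and 9.23, 9.23 and 9.26 in shSTIL. It rose 1.23-fold (log2 fold change 0.30, interval 0.24 to 0.37, limma adjusted p = 1.7e-06), the least of the 6 genes that rose, with a narrow interval at 7784 to 10415 reads per library.

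CSF2 (chr5:132073790-132076170, plus strand) had the highest log2 fold change of the 10 genes, at low counts. It had 10, 12 and 15 reads in shNC libraries and 38, 42 and 24 in shSTIL libraries, or log2 CPM of -0.43, -0.22 and 0.09 against 1.23, 1.36 and 0.62. The groups did not overlap (log2 fold change 1.25, interval 0.72 to 1.79, limma adjusted p = 6.4e-04), and edgeR on the recovered reads gave 1.39 (adjusted p = 6.6e-05). The summed reads, 104 against 37, gave a ratio scaled for depth of 2.65 (95% exact interval 1.8 to 3.96, counting error only). The call was lost when any library but shSTIL replicate 3 was left out, with limma adjusted p from 0.0113 to 0.0293.

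IL1B, the secreted fever cytokine, moved the other way from the 6 genes that rose. IL1B (chr2:112829751-112836903, minus strand) had 10, 11 and 10 reads in shNC libraries and 0, 3 and 2 in shSTIL libraries, or log2 CPM of -0.43, -0.33 and -0.42 against -3.05, -1.76 and -2.07. Its log2 fold change was -1.90 (interval -2.60 to -1.20, limma adjusted p = 1.9e-04), and edgeR gave -2.63 (adjusted p = 4.9e-04). The size depends on the prior count at such low counts, and a prior count of 5 gave -1.27 and one of 0.5 gave -2.79. The summed reads, 5 against 31, gave a depth-scaled ratio of 0.152 (exact interval 0.0461 to 0.394, counting error only). The call was lost without shNC replicate 1, 2 or 3 or shSTIL replicate 3, with limma adjusted p up to 0.0176.

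Its neighbour IL1A (chr2:112773915-112784590, minus strand) had 1, 1 and 0 reads in shNC and 0, 1 and 1 in shSTIL, at or under 3 reads in every library, too few for a fold change to be read. CCL2 (chr17:34255218-34257203, plus strand), the monocyte chemokine, had 14, 7 and 9 reads in shNC and 6, 12 and 8 in shSTIL. The CCL2 libraries overlapped, and a difference was not detectable at this depth (log2 fold change -0.24, interval -0.87 to 0.39, limma adjusted p = 0.534, exact permutation p = 0.6). The plot of log2 fold changes sets the 10 genes side by side.

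**Figure D2:**
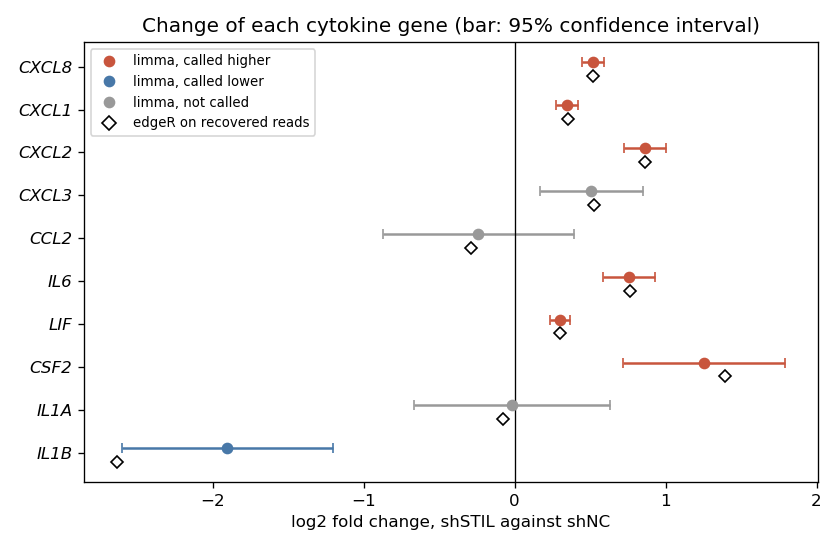
Log2 fold change of shSTIL against shNC (horizontal axis) for the 10 cytokine genes; filled points are limma estimates with 95% confidence intervals, coloured by call, and open diamonds are edgeR estimates on the recovered reads. CXCL8, CXCL1, CXCL2, IL6, LIF and CSF2 lie to the right of 0, IL1B lies to the left at -1.90, and the interval of CCL2 spans 0.

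Compared per length of transcript, the 10 genes spanned several orders of magnitude and stood in the same order in both groups by their mean. CXCL8 was the most abundant, at 356 ± 9.5 CPM per kb in shNC and 511 ± 14.4 in shSTIL (mean ± SD, n = 3). CXCL1 came next, at 145 ± 3.59 and 185 ± 4.97, ahead of LIF at 123 ± 3.13 and 152 ± 1.93. CXCL2 stood at 14.6 ± 0.441 and 26.7 ± 1.7, and IL6 at 6.84 ± 0.151 and 11.6 ± 0.657. CXCL3 followed at 2.75 ± 0.285 and 3.97 ± 0.414. CSF2 was at 0.975 ± 0.206 in shNC, where its libraries overlapped those of CCL2 (0.846 ± 0.309), and at 2.57 ± 0.688 in shSTIL, where they were above those of CCL2 (0.688 ± 0.239). IL1B stood at 0.394 ± 0.0173 in shNC and 0.0597 ± 0.0546 in shSTIL. The levels plot shows the 8 genes with reads in every library, which leaves out IL1A and IL1B.

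**Figure D3:**
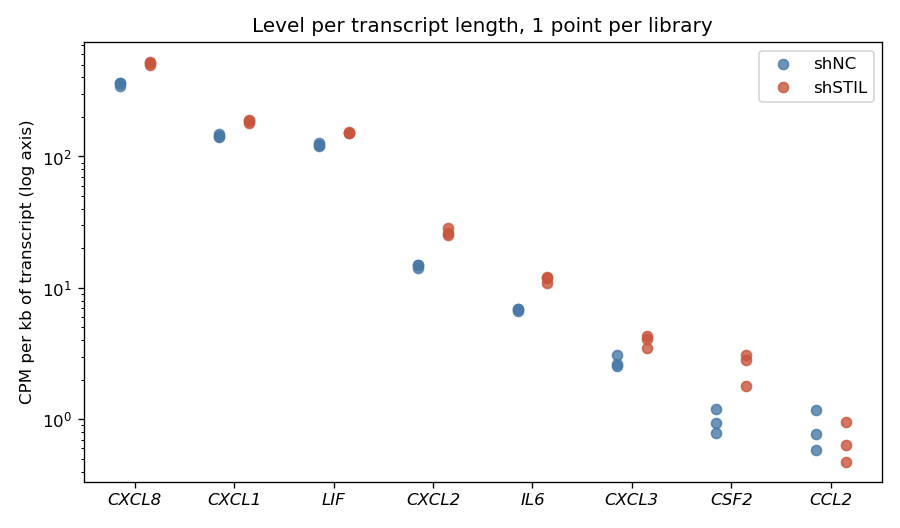
CPM per kb of transcript (log axis) of the 8 cytokine genes with reads in every library, 1 point per library, blue for shNC and red for shSTIL. CXCL8, CXCL1 and LIF stand more than an order of magnitude above IL6, and CSF2 and CCL2 overlap only in shNC.

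The 10 genes together summed to 1288, 1285 and 1293 CPM in shNC and 1734, 1750 and 1721 CPM in shSTIL, a ratio of the means of 1.35 (exact permutation p = 0.1). CXCL8 and LIF made up 84.7% to 85.3% of these reads in shNC and 84.6% to 85.5% in shSTIL. Within that, the share of CXCL8 was 45.6% to 48.1% in shNC and 48.9% to 50.9% in shSTIL, and that of LIF was 37.2% to 39.1% and 34.2% to 35.6%. Of the 11319 genes averaging a log2 CPM of 1 or more, 2.90% had a log2 fold change at least as high as that of CXCL2, 4.25% as IL6, 10.5% as CXCL8, 11% as CXCL3, 19.7% as CXCL1 and 22.9% as LIF.

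Ratios between some of the genes had no overlap between the groups, though no pair could pass a test of 3 libraries against 3. Ratios within a library, which do not depend on depth, were compared for the 15 pairs among the 6 cytokine genes at that level, and 10 pairs had no overlap between groups. For each of these the exact permutation p was 0.1 (0.15 adjusted over the 15 pairs), the smallest possible. The pairs share 6 genes and are not independent. The share of such pairs among other genes was not counted, while 29.9% of single genes had no overlap and were higher, and 30.5% lower. The log2 ratio of CXCL1 to CXCL2 was 3.16, 3.09 and 3.19 in shNC and 2.67, 2.68 and 2.56 in shSTIL, a difference of -0.51. That of CXCL2 to LIF was 0.56 higher in shSTIL, that of IL6 to LIF 0.46 higher and that of CXCL8 to LIF 0.22 higher. The ratio of CXCL2 to IL6 overlapped between groups (difference 0.10), as did that of CXCL3 to CXCL8 (difference -0.012).

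CXCL8, CXCL1, CXCL3 and CXCL2 lie in a cluster of chemokine genes on chromosome 4, which also holds CXCL6, a further neutrophil chemokine. CXCL6 did not pass the test (log2 fold change 0.20, limma adjusted p = 0.412). Beyond CXCL2, MTHFD2L, a mitochondrial folate enzyme, was lower (-0.60, limma adjusted p = 2.0e-04), and so was AREG, the growth factor amphiregulin (-1.01, limma adjusted p = 5.1e-05). The growth factor genes EPGN and EREG between them, with mean log2 CPM near -2, had log2 fold changes of -0.16 and -0.09 and were not called. Of the genes measured around IL1A and IL1B on chromosome 2, the phosphate transporter SLC20A1 was lower (-0.60, limma adjusted p = 1.4e-09). CKAP2L was not called (-0.0020), nor were NT5DC4 (-0.56), IL36G (-0.71) and IL37 (0.14), each at a mean log2 CPM under 0. The plot of the cluster shows these values by position.

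**Figure D4:**
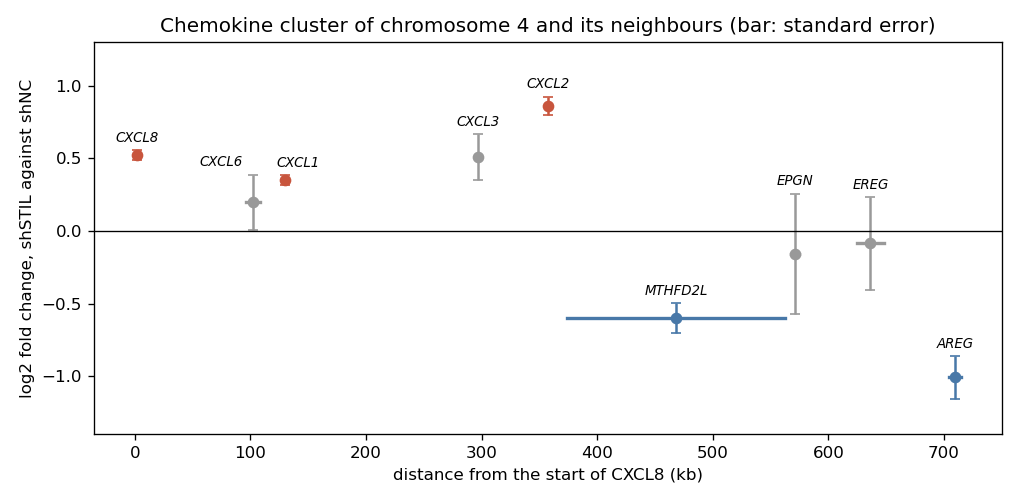
Log2 fold change of shSTIL against shNC (vertical axis, bar: standard error) of the measured genes of the chromosome 4 chemokine cluster and its neighbours, by distance from the start of CXCL8 in kb (horizontal axis; horizontal lines span each gene). Red genes were called higher, blue genes lower and grey genes were not called; CXCL8, CXCL1 and CXCL2 are red, and MTHFD2L (-0.60) and AREG (-1.01) are blue.

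Of 15 receptors and binding partners of the 10 proteins, 11 were measured, of which 3 (27.3%) were higher, 2 (18.2%) lower and 6 not called, against 23.5% and 23.6% of all genes higher and lower. Their median log2 fold change was 0.11, against 0.0052 over all genes. The shares of all genes include many low genes, which are called less often. In the fit restricted to genes averaging a log2 CPM of 1 or more, 32.5% of 11319 were called higher. CXCR1, CCR2, CSF2RB and ACKR1 are not analysed here. CXCR2, the chemokine receptor of the CXCL genes, had 1 read in shNC replicate 2 and none in the other 5 libraries. Of the gp130 family, the shared chain IL6ST was abundant and higher (mean log2 CPM 8.71 and 8.92, log2 fold change 0.21, limma adjusted p = 2.3e-04), although the call was lost in 5 of the 6 fits that left out a library (all but shNC replicate 2). IL6R was not called (0.11, limma adjusted p = 0.587). LIFR, the LIF receptor chain, was lower (-0.73, limma adjusted p = 0.00129), a call lost in the fits without any library but shSTIL replicate 2 (adjusted p up to 0.0294).

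Among the interleukin 1 receptors, the accessory chain IL1RAP was higher (log2 fold change 0.63, limma adjusted p = 7.4e-06), and IL1R1 was not called (0.21, limma adjusted p = 0.390). The decoy IL1R2 had 1 to 6 reads per library and the chemokine decoy ACKR2 had 0 to 5, and neither was called. CSF2RA, the binding chain of the CSF2 receptor, was higher at 10 to 11 reads in shNC and 19 to 30 in shSTIL (0.92, limma adjusted p = 0.00388). That call was lost without any library but shSTIL replicate 2 (adjusted p up to 0.0283). Of the heparan sulphate proteoglycans that hold chemokines at the cell surface, SDC1 was lower (-0.78, limma adjusted p = 3.4e-09) and SDC4 was not called (-0.09, limma adjusted p = 0.0275).

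Genes of NF-kB, the factor family known to induce these chemokines, were all measured. Of 30 such genes, 20 (66.7%) were higher and 3 (10%) lower, against 23.5% and 23.6% of all genes, and their median log2 fold change was 0.36, against 0.0052 over all genes. All 30 averaged a log2 CPM of 1 or more, and the fit restricted to such genes called 32.5% of 11319 higher. The list was chosen with earlier results of these data known. TRAF1, an adaptor of TNF receptors, was higher by 2.53 (limma adjusted p = 2.0e-12), RELB, a subunit of the non-canonical path, by 1.22, and BIRC3, an inhibitor of apoptosis, by 1.21. The adaptor MYD88 (-0.42) and the kinase IRAK2 (-0.41), which act below the interleukin 1 receptor, and the subunit REL (-0.23) were lower. REL lost its call without shNC replicate 3, shSTIL replicate 2 or shSTIL replicate 3 (limma adjusted p up to 0.0240).

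Of 15 genes for C/EBP, AP-1 and other transcription factors with sites in cytokine promoters, 8 (53.3%) were higher and 2 (13.3%) lower (median 0.43). The shares of all genes were 23.5% and 23.6%. The fit restricted to genes averaging a log2 CPM of 1 or more, a level that CEBPA did not reach, called 32.5% higher. The largest rises were those of MAFF (1.08), FOSL2 (0.81) and FOSL1 (0.78), and the genes called lower were DDIT3 (-0.19) and FOS (-0.14). Both of those calls were lost in every fit that left out a library, with limma adjusted p up to 0.0543 for DDIT3 and 0.0248 for FOS. Of 20 genes for factors of AU-rich mRNA decay and stability, 11 (55%) were higher and 6 (30%) lower (median 0.19), against 23.5% and 23.6% of all genes. All 20 averaged a log2 CPM of 1 or more, where the restricted fit called 32.5% higher. Of genes at that level, 32.4% without the word TTATTTATT and 23.4% with it were called lower, so the share lower was near that of other genes. ZC3H12C, an RNase of the regnase family, was higher by 1.17, ZFP36L2, which binds AU-rich words, by 0.47, and DUSP1, a phosphatase of MAP kinases, by 0.45. KHSRP (-0.86) and HNRNPD (-0.53), which also bind AU-rich RNA, and CNOT8 (-0.38), a deadenylase, were lower.

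Of 20 genes of JAK-STAT3 signalling, the path of IL6 and LIF, 19 were measured, of which 12 (63.2%) were higher and 2 (10.5%) lower, against 23.5% and 23.6% of all genes, with a median of 0.25. The fit restricted to genes averaging a log2 CPM of 1 or more, a level that STAT5A and LRG1 did not reach, called 32.5% higher. The STAT3 target and feedback inhibitor SOCS3 was higher by 0.69, SOCS2 by 0.61 and the kinase PIM3 by 0.76, while PIAS3, an inhibitor of STAT3, was lower (-0.42). PIAS3 lost its call without shSTIL replicate 3 (limma adjusted p = 0.0140). Of 22 genes of interleukin 1 processing and antagonism, 18 were measured, of which 6 (33.3%) were higher and 5 (27.8%) lower, against 23.5% and 23.6% of all genes, with a median of 0.10. The restricted fit called 32.5% higher. The interleukin 1 list also holds genes below its level of 1, such as CASP1 (mean log2 CPM -2.38), so the shares cannot be compared directly. NLRP1, an inflammasome sensor, was higher by 1.44, the calpain CAPN2 by 0.61 and the protease inhibitor SERPINB1 by 0.56. The calpain subunits CAPN1 (-0.71) and CAPNS1 (-0.57) and S100A13 (-0.43), a release factor, were lower.

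Of 44 further cytokine, chemokine and growth factor genes 32 were measured, of which 10 (31.2%) were higher and 6 (18.8%) lower, against 23.5% and 23.6% of all genes, with a median of 0.12. The fit restricted to genes averaging a log2 CPM of 1 or more called 32.5% higher. This list also holds genes below that level, such as CXCL11 (mean log2 CPM -2.95), so the shares cannot be compared directly. CSF1, the macrophage growth factor, was higher by 2.06 (limma adjusted p = 3.4e-11), IL32 by 1.84 and HBEGF, an EGF receptor ligand, by 1.47. CCL20, a chemokine for dendritic cells and lymphocytes, was lower by 1.28 on the log2 scale (-1.28, limma adjusted p = 9.9e-08), as were AREG (-1.01) and CCL5 (-0.63). The call of CCL5 was lost in every fit that left out a library except that without shSTIL replicate 2 (limma adjusted p up to 0.0115).

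Cytokines such as IL6 and CXCL8 are also known as part of the secretory phenotype of senescent cells. Of 31 other genes of that phenotype 29 were measured, of which 9 (31.0%) were higher and 9 (31.0%) lower, against 23.5% and 23.6% of all genes (median -0.0048, against 0.0052 over all genes). The fit restricted to genes averaging a log2 CPM of 1 or more called 32.5% higher. This list also holds genes below that level, such as IGFBP5 (mean log2 CPM -2.95), so the shares cannot be compared directly. Among genes at that level, the share called lower was counted only with a split by the AU-rich word TTATTTATT. It was 32.4% of genes without the word and 23.4% of those with it. FGF2 (0.75), the urokinase receptor PLAUR (0.73) and GDF15 (0.53) were higher. IGFBP3 (-1.70) and IGFBP6 (-0.92), which bind insulin-like growth factors, were lower, and so was the nuclear lamina gene LMNB1 (-1.19). The plot of gene lists gives every measured gene.

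**Figure D5:**
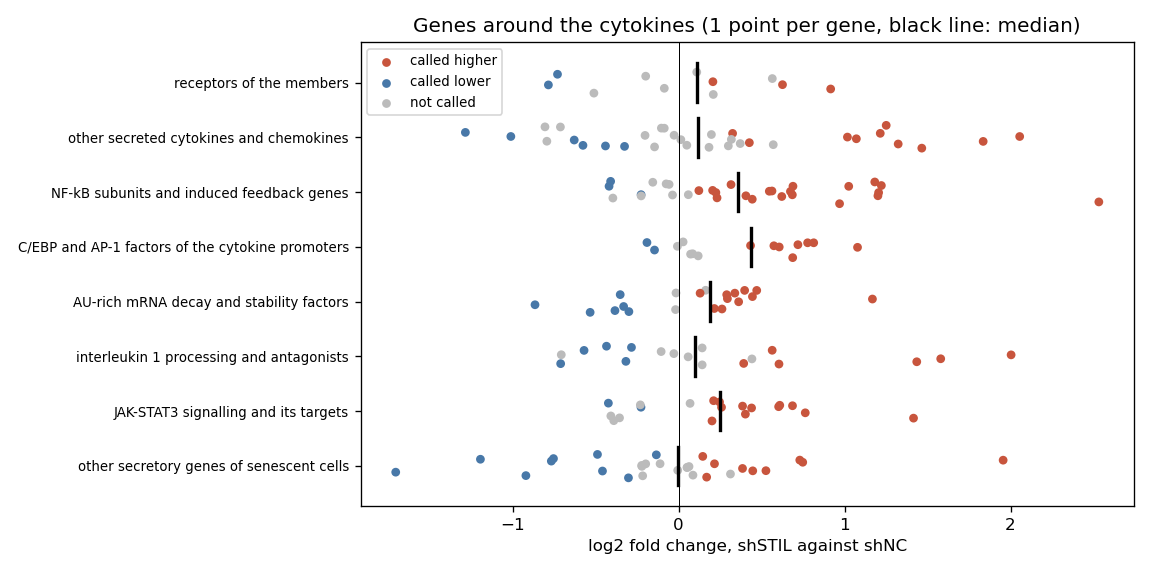
Log2 fold change of shSTIL against shNC (horizontal axis) for the measured genes of 8 lists around the cytokines (named at the left), 1 point per gene, red for called higher, blue for called lower and grey for not called, with the median as a black line; the vertical scatter within a list has no meaning. The medians of the NF-kB (0.36) and of the C/EBP and AP-1 (0.43) lists stand to the right of 0, and that of the senescence list is -0.0048.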

How the data were processed

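Total RNA of 6 EJ libraries was sequenced on the BGISEQ-500 platform. The authors filtered reads with SOAPnuke, mapped them to the transcriptome with Bowtie2, estimated expected counts per gene with RSEM and deposited log2 CPM made with edgeR for all 6 libraries. The deposited expected counts (15957 genes) were used for shNC replicate 1 and the 3 shSTIL libraries only, to check the reads recovered from the log2 CPM (prior count 2). The submitters' processing notes name Bowtie2, RSEM, limma and hg38, and versions are not given in the sources used here. Whether the counting used strand is not given either. Groups follow the sample labels (shNC, shSTIL), whereas column headings name siRNA. Recovered and deposited counts differed by at most 0.0526 reads, and 87.5% to 87.9% of values were whole within 0.01.

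All 15953 genes were fitted with limma 3.58.1 (lmFit, eBayes with a mean-variance trend, no replicate block) in R 4.3.3, with Benjamini-Hochberg adjustment over all genes and calls at an adjusted p under 0.01. Fold changes are on the log2 CPM scale and understate those of low genes. Recovered reads were rounded for edgeR 4.0.16 (quasi-likelihood) and DESeq2 1.42.0, run as alternatives. The main limma fit, edgeR and DESeq2 were tested on simulated data, in which only genes with at least 10 expected reads were changed. The other fits were not tested in this way. Single genes were compared with an exact permutation test. Levels per kb and 3′ UTRs used, for each gene, the GENCODE 29 coding transcript with the longest 3′ UTR, which need not be its main transcript. That of CCL2 has a coding sequence of 198 bases. Intervals of summed reads are exact binomial (Clopper-Pearson) and cover counting error only. Other alternatives were no trend, quantile normalization, median centring, a filter of mean log2 CPM of at least 1, prior counts of 0.5 and 5, a threshold of 0.05, an absolute log2 fold change above 1, a replicate block and each library left out. Named are the 10 genes, their measured receptors, STIL, some cell type markers, and at most 3 called genes per direction and list that average a log2 CPM of 1 or more. Also named are measured genes beside the chromosome 4 cluster and beside IL1A and IL1B, and STEAP1B, which overlaps IL6. Other genes beside IL6, and those beside LIF and CSF2, are not described. The genes and lists were chosen with earlier results of these data known. A gene that this rule would name is not reported here.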

Additional observations from a re-analysis of the deposited data

How the results depend on the processing

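Across 18 alternatives, the values of 62 named genes kept direction and side of the threshold 940 times, lost the call 96 times, gained it 7 times and changed sign 4 times, each time for IL1A, which had at most 1 read per library. Its fitted log2 values, which rest on too few reads to give a fold change, were 0.025 with median centring and -0.22 to 0.17 with a library left out. CXCL1, CXCL2, CXCL8, IL6 and LIF were called in every fit that left out a library, in which between 5 and 6 of the 10 genes were called higher and 0 to 1 lower. The number lower was 0 with the filter of mean log2 CPM of at least 1, because IL1B lay below it. With an absolute log2 fold change above 1 the number higher was 1, CSF2. With the replicate block 6 genes were called higher and 1 lower. Deviations of libraries with the same replicate number correlated at -0.12, -0.06 and -0.11, so the numbers did not pair the libraries. Depth limits CSF2, CCL2, IL1A and IL1B, with 0 to 42 reads per library. Median centring moved the median of all genes by 0.043 and quantile normalization by 0.012.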

Other observations

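The AU-rich word TTATTTATT, found in 7 of the 10 cytokine mRNAs, was also present in the 3′ UTR of 1088 genes that average a log2 CPM of 1 or more. Of these 39.4% were called higher and 23.4% lower in shSTIL, with a median log2 fold change of 0.10. Among 10002 such genes without the word, 29.5% were higher and 32.4% lower, with a median of -0.016. These shares are descriptions across genes, which are not independent replicates. Genes with and without the word were not matched for 3′ UTR length, base content or level. Whether the word itself plays a part was not tested.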
